A study of Mus musculus with 4 samples.

Results

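The genes described here form the hypoxia-inducible factor (HIF) pathway and its response outside glycolysis. They comprise HIF subunits, the proteins that control HIF and genes that HIF is known to switch on when oxygen falls. A fixed list of 30 gene names was matched to the gene name column of the authors' deposited table, which gave 48 probes among 33653 named probes for 26240 genes. Of the 30 genes, 27 passed the filter on dim probes described below and were tested among 17154 genes, and 25 of these 27 were well above background on all 4 arrays. Lox, Car12 and Mxi1 were too dim on all 4 arrays to pass and have no comparison.

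HIF is a pair of proteins, an alpha subunit that oxygen destabilises and a constant partner encoded by Arnt. Prolyl hydroxylases of the Egln family use oxygen to mark the alpha subunit, the product of Vhl then directs its degradation, and the asparaginyl hydroxylase encoded by Hif1an blocks its contact with coactivators. When oxygen is short the alpha subunit accumulates and raises genes for blood vessel growth, mitochondrial turnover, collagen modification and acid-base balance. Beta cells respire strongly when glucose is metabolised, and islets kept in culture lack a blood supply.

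The study measured gene expression in isolated pancreatic islets of C57BL/6 mice aged 8 weeks. Islets were cultured for 24 h in RPMI1640 medium with 5.6 mM glucose and either 30 µM GKA, a small-molecule activator of glucokinase, or the vehicle DMSO. RNA was hybridised to 1-colour Agilent arrays, 2 for GKA and 2 for vehicle, numbered replicates 1 and 2 in each group. Nothing in the labels tells whether replicates are different mice or separate cultures. The p-values therefore reflect just the variation among these 4 samples, and that variation may be technical.

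All 4 arrays came from 1 slide, with each group at positions of its own, and the effect of position cannot be told apart from that of GKA. From 59.7% to 63.5% of probes other than controls gave a signal well above background. As a measure of overall brightness, the 75th percentile of processed signal was 557 and 598 on the GKA arrays and 751 and 755 on the vehicle arrays. Processed signals are given below as deposited, before scaling, while log2 values are relative to that percentile of each array. The samples held islet cells by their markers: all 18 endocrine markers examined, among them Ins1, Ins2, Gcg and Sst, were well above background on all 4 arrays. In such bulk samples a change in the share of a cell type and a change in RNA per cell cannot be told apart.

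Hypoxia targets were higher with GKA in part, while no gene that builds or controls HIF itself passed the threshold given below. Stc2, Adm, Ero1l, Higd1a and Ddit4 rose, with folds of 6.65, 5.40, 2.38, 2.21 and 1.55 (n = 2 arrays per group). Egln3, which encodes an oxygen-dependent hydroxylase that is itself a HIF target, was 4.79-fold higher and lay just outside the threshold. Genes were called with limma's two-sided test at an adjusted p under 0.05, with the Benjamini-Hochberg method applied to all 17154 genes. By this rule 5 of the 27 members were higher, where 9.11% of all genes were called higher, and 0 were lower, where 8.02% were called lower. At an unadjusted p under 0.05, 13 members were higher and 1 was lower, against 18.2% and 17.9% of all genes. The 13 include Car9, a dim gene that the filter kept only through its GKA arrays. The median log2 fold change of the 27 members was 0.46, beside -0.01 over all genes tested.

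In the plot of values by array, both GKA arrays lay above both vehicle arrays for 17 of the 27 members, where 32.4% of all genes did so, and below both for 3 members, where 33.5% did so. The members with higher GKA arrays also include Car9. They include Epas1 by its brightest probe, while its other probes had both GKA arrays below both vehicle arrays. Of the 17 tested targets, 15, Car9 among them, had a log2 fold change above 0, with a median of 0.68 over the targets. Among the 10 subunits and regulators 6, Epas1 by its brightest probe among them, lay above 0, with a median of 0.20. Directions are relative to the scaling: without scaling the median of all genes moved to -0.40 and that of the members to 0.08, and with spike-in scaling they moved to -0.50 and -0.02. Both settings shift every gene of an array by the same amount, so the gap of 0.48 between those medians cannot change with them.

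**Figure D1:**
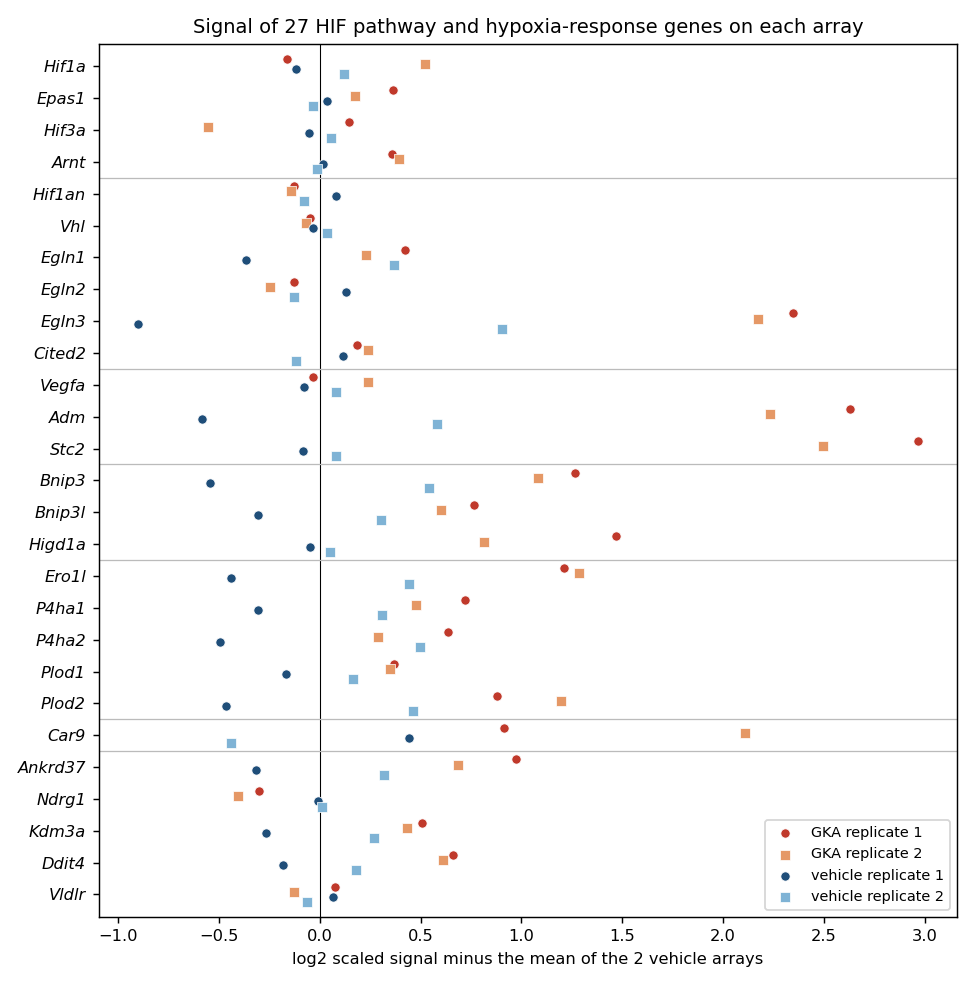
Log2 scaled signal of the 27 tested members on each of the 4 arrays (horizontal axis), as the difference from the mean of the 2 vehicle arrays, with 1 row per gene and grey lines between roles. Stc2 has its GKA arrays 2.50 to 2.97 above the vehicle mean and its vehicle arrays close together, whereas Egln3, Adm and Bnip3 have vehicle arrays that lie more than 1.00 apart.

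The vehicle arrays differed from each other in many of these genes. Vehicle replicate 2 exceeded vehicle replicate 1 by at least 0.50 on the log2 scale in 11 of the 27 members, where 4.65% of all genes did so, and in 20 of 27 by any amount, where 42.5% of all genes did so. The median difference was 0.24 over the members and 0.53 over the 17 targets, beside -0.04 over all genes tested. Between the GKA arrays, replicate 2 minus replicate 1 had a median of -0.12 over the members and -0.04 over all genes. Set against vehicle replicate 1 alone, the GKA mean stood higher by a median of 0.74 over the members, and against vehicle replicate 2 alone by 0.30.

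Leaving out an array changed the calls. Without vehicle replicate 2, 14 members were higher, where 8.86% of all genes were, and without vehicle replicate 1, 4 were (Adm, Egln3, Ero1l and Stc2), where 5.97% of all genes were. Without GKA replicate 1 only Stc2 passed, where 1.85% of all genes were higher, and without GKA replicate 2 only Higd1a and Stc2 did, where 1.95% were. In such a fit the lone array of a group is assumed to vary like the others. The gap between the arrays of that group no longer counts, so a pass cannot show a difference beyond that gap.

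**Figure D2:**
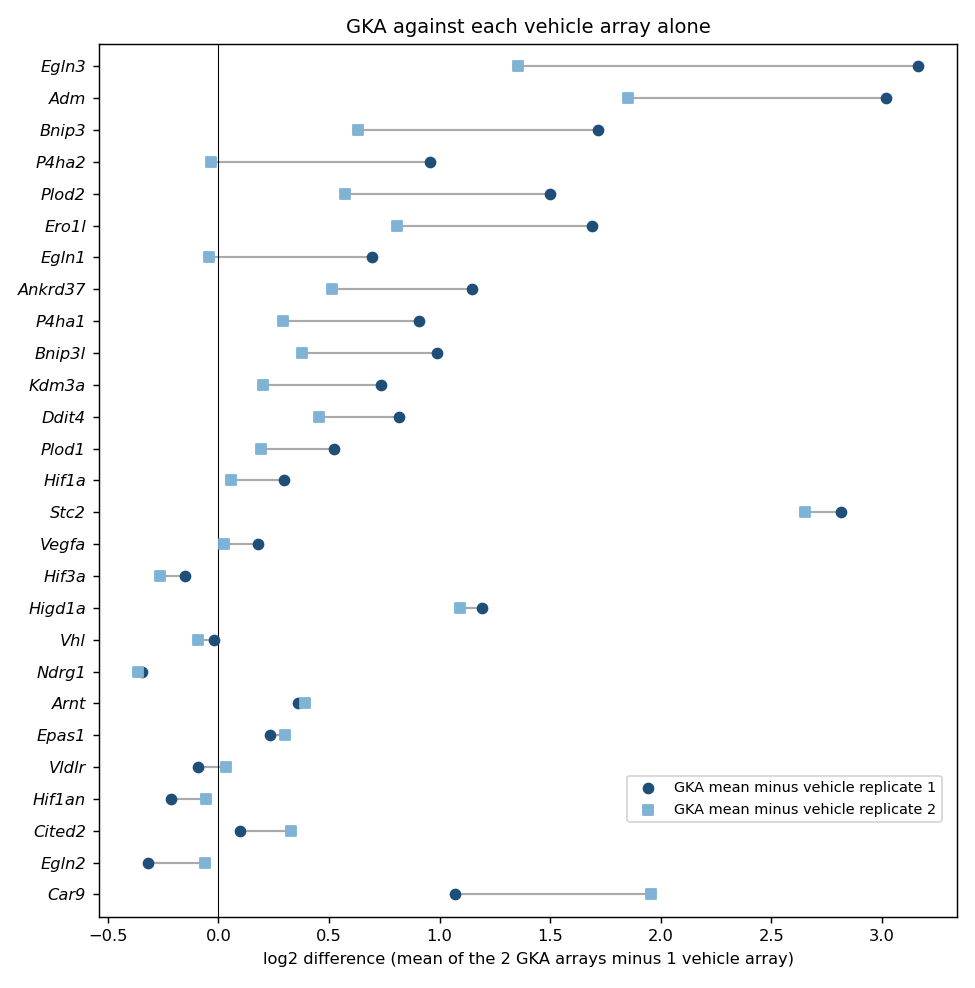
Mean of the 2 GKA arrays minus vehicle replicate 1 (circles) and minus vehicle replicate 2 (squares), on the log2 scale, for the 27 members, ordered by the difference between the vehicle arrays. Egln3 spans 1.36 to 3.16, whereas Stc2 spans 2.65 to 2.82 and Higd1a 1.09 to 1.19.

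The secreted factors held the largest rises. Stc2 encodes stanniocalcin-2, a secreted glycoprotein that also responds to stress of the endoplasmic reticulum. Its processed signal was 643 and 498 on the GKA arrays, against 105 and 118 on the vehicle arrays. Both GKA values stood well above both vehicle values, and the vehicle values were close to each other. Its log2 fold change was 2.73 ± 0.19 (SE, adjusted p = 0.00384 in limma), and the gene passed under all 15 alternative settings tried, with values from 2.25 to 2.97.

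Adm encodes adrenomedullin, a peptide that widens blood vessels. Processed signals of Adm were 689 and 562 on the GKA arrays, against 100.1 and 226 on the vehicle arrays. The groups did not overlap, but the vehicle arrays differed more than 2-fold from each other. Its log2 fold change was 2.43 ± 0.39 (SE, adjusted p = 0.0198 in limma), 1.85 without vehicle replicate 1 and 3.02 without vehicle replicate 2. Without GKA replicate 1 or GKA replicate 2 it did not pass, at an adjusted p of 0.0833 and 0.0685 in limma.

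Vegfa, the growth factor for blood vessels that is often taken as the model HIF target, was not shown to change. The brightest Vegfa probe had processed signals of 8135 and 10535 on the GKA arrays, against 10645 and 11925 on the vehicle arrays. After scaling the groups overlapped, with a log2 fold change of 0.10 (95% interval -0.27 to 0.47, adjusted p = 0.651 in limma). A second Vegfa probe gave 0.15. Without scaling, with spike-in scaling and without GKA replicate 2 the value lay below 0.

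Among the mitochondrial targets, Higd1a rose. It encodes a small inner-membrane protein that is induced by low oxygen. Its processed signal was 3957 and 2695 on the GKA arrays, against 1860 and 2003 on the vehicle arrays. Here the GKA arrays differed more than the vehicle arrays did. The log2 fold change was 1.14 ± 0.23 (SE, adjusted p = 0.0326 in limma), and it was 0.81 without GKA replicate 1 (adjusted p = 0.0699) and 1.09 without vehicle replicate 1 (adjusted p = 0.0667).

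Bnip3 and Bnip3l encode receptors that mark mitochondria for removal by autophagy, and neither passed. Bnip3 had a processed signal of 68276 and 64612 on the GKA arrays, against 26271 and 56167 on the vehicle arrays. The GKA arrays agreed closely, while vehicle replicate 2 lay nearer to them than to vehicle replicate 1. Its log2 fold change was 1.17 ± 0.36 (SE, adjusted p = 0.0785 in limma), 0.63 without vehicle replicate 1 and 1.72 without vehicle replicate 2. The other Bnip3 probes gave 1.25 and 1.09. Bnip3l stood at 0.68 ± 0.22 (SE, adjusted p = 0.0926), and its other 3 probes lay between 0.53 and 0.69. All 7 probes of this pair had both GKA arrays above both vehicle arrays, where 32.4% of all genes did so. Probes of the same gene were read on the same arrays, so their agreement adds no replication.

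Of the genes that act in the secretory pathway, Ero1l (Ero1a in RefSeq) rose. It encodes an oxidase of the endoplasmic reticulum that helps to form disulfide bonds and consumes oxygen. Its processed signal was 1044 and 1177 on the GKA arrays, against 447 and 829 on the vehicle arrays. Both GKA values exceeded both vehicle values, with vehicle replicate 1 the lowest. The log2 fold change was 1.25 ± 0.29 (SE, adjusted p = 0.0441 in limma), 0.81 without vehicle replicate 1 and 1.69 without vehicle replicate 2. Without GKA replicate 1 or GKA replicate 2 the adjusted p was 0.13 and 0.151.

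The collagen-modifying enzymes did not pass. P4ha1 and P4ha2 encode catalytic subunits of collagen prolyl 4-hydroxylase, and Plod1 and Plod2 encode lysyl hydroxylases. Plod2 stood at 1.04 ± 0.32 (SE, adjusted p = 0.082 in limma) and P4ha1 at 0.60 ± 0.23 (adjusted p = 0.13). Plod1 stood at 0.36 ± 0.15 (adjusted p = 0.154). P4ha2 stood at 0.46 ± 0.34 (adjusted p = 0.376), with processed signals of 5846 and 4935 on the GKA arrays, against 3598 and 7191 on the vehicle arrays. After scaling, both GKA values of P4ha2 lay above vehicle replicate 1 and on either side of vehicle replicate 2, and the GKA mean was 0.96 above vehicle replicate 1 but -0.03 from vehicle replicate 2. Lox, the lysyl oxidase that cross-links collagen, was too dim on all 4 arrays with both of its 2 probes.

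Car9 and Car12 encode carbonic anhydrases of the cell surface, and both were dim. Car9 had a processed signal of 18.6 and 45.8 on the GKA arrays, against 18.1 and 9.85 on the vehicle arrays, where only 1 of 2 was well above background. The GKA arrays lay farther apart than the vehicle arrays, which differed by -0.89 on the log2 scale (replicate 2 minus replicate 1). The gene was kept by the filter through the GKA arrays, and its log2 fold change of 1.51 ± 0.47 (SE, adjusted p = 0.0833 in limma) is a value near background. Car12 had no array well above background.

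Ddit4, Ankrd37, Kdm3a, Ndrg1 and Vldlr act inside the cell or at its surface. Ddit4 encodes REDD1, an inhibitor of the growth-promoting kinase complex of mTOR. Its processed signal was 16818 and 17486 on the GKA arrays, against 12673 and 16391 on the vehicle arrays. It rose by 0.64 ± 0.16 on the log2 scale (SE, adjusted p = 0.0499 in limma), at the edge of the threshold. The gene passed under 5 of 15 alternative settings, among them the fit lacking vehicle replicate 2 (0.82). It missed the threshold without vehicle replicate 1 (0.45, adjusted p = 0.13), without GKA replicate 1 (adjusted p = 0.162) or without GKA replicate 2 (adjusted p = 0.156).

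Ankrd37, a small ankyrin-repeat gene, stood at 0.83 ± 0.24 (SE, adjusted p = 0.0712 in limma), with processed signals of 3363 and 2951 on the GKA arrays, against 1853 and 2894 on the vehicle arrays. Kdm3a, a histone demethylase, stood at 0.47 ± 0.20 (adjusted p = 0.156). Ndrg1, a gene induced by low oxygen and by differentiation, ran the other way. Its processed signal was 11870 and 11824 on the GKA arrays, against 19555 and 19979 on the vehicle arrays, so that the arrays of each group nearly coincided. Its log2 fold change was -0.35 ± 0.11 (SE, adjusted p = 0.0915), and it passed as lower without scaling, with spike-in scaling and with normexp background correction. Vldlr, the receptor for very low density lipoprotein, stood at -0.03 (95% interval -0.36 to 0.31, adjusted p = 0.902), and its second, dimmer probe at 0.41. Mxi1, an antagonist of MYC, had 1 probe, which was too dim on all 4 arrays.

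**Figure D3:**
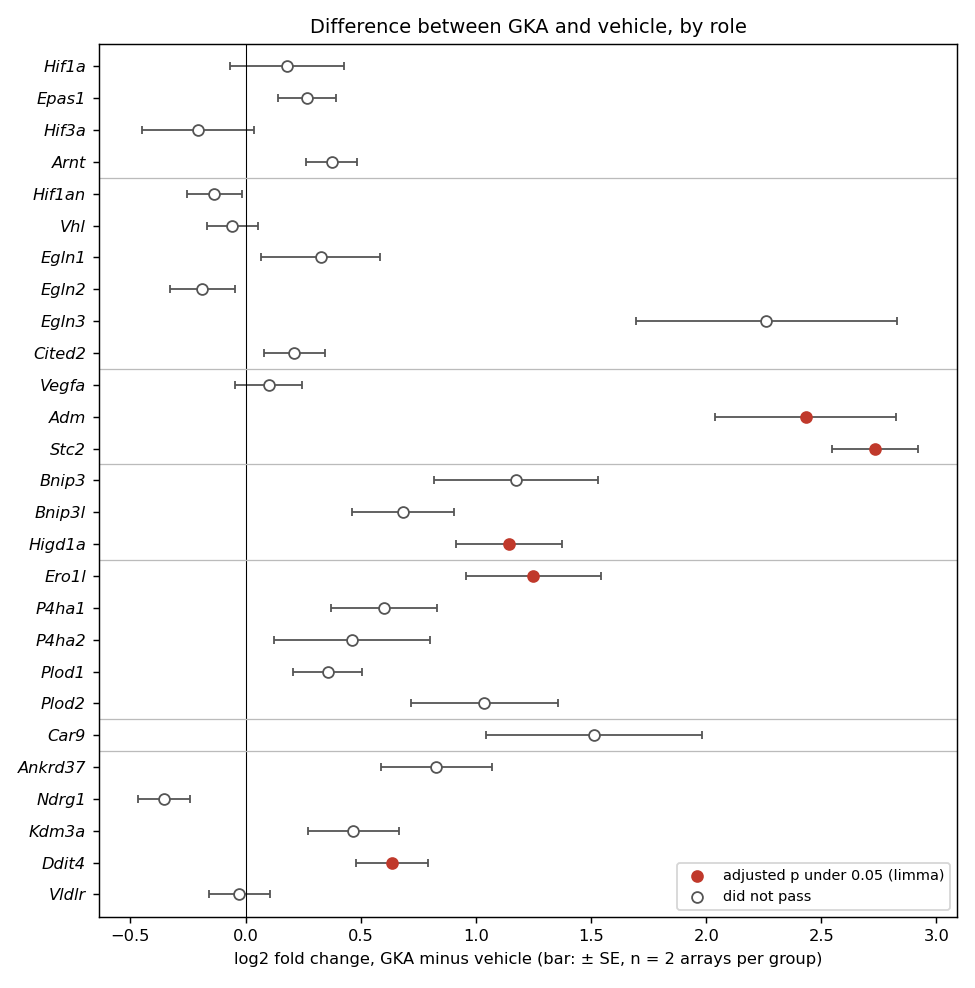
Log2 fold change of GKA minus vehicle with its SE for the 27 tested members, grouped by role in the order subunits, regulators, secreted factors, mitochondrial, secretory and collagen-modifying, acid-base and other targets. Filled points passed limma's adjusted p of 0.05, and the 5 that did so are all targets.

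The HIF subunits did not pass. Hif1a, the oxygen-regulated subunit best known from acute hypoxia, had processed signals of 445 and 767 on the GKA arrays, against 618 and 735 on the vehicle arrays. Its GKA arrays enclosed both vehicle arrays, and the log2 fold change was 0.18 (95% interval -0.45 to 0.80, adjusted p = 0.641 in limma). HIF activity is set mainly by the stability of the alpha protein, which an array does not measure. Arnt, the shared partner, stood at 0.37 ± 0.11 (SE, adjusted p = 0.0741), with the 2 GKA values, after scaling, close to each other and above 2 close vehicle values. Its second probe stood at 0.61 ± 0.11 (adjusted p = 0.0252 when each probe was tested as its own feature), so its probes fell on different sides of the threshold. Arnt passed as higher with normexp background correction, at 0.38 (adjusted p = 0.0246 in limma). It also passed with the mean of its probes, at 0.49 (adjusted p = 0.0388 in limma). Without scaling and with spike-in scaling the first Arnt probe lay at -0.01 and -0.11.

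Epas1, which encodes the alpha subunit of HIF-2, had 3 probes that disagreed. The brightest stood at 0.27 ± 0.13 (SE, adjusted p = 0.19 in limma), with both GKA arrays above both vehicle arrays. The other probes stood at -0.25 and -0.47, with both GKA arrays below both vehicle arrays, and neither passed. No direction can be given for Epas1. Hif3a, a less studied alpha subunit, cleared background on only 1 of the 2 GKA arrays and stood at -0.21 ± 0.24 (adjusted p = 0.579). Its other 2 probes were too dim on all 4 arrays to be tested.

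Of the regulators, Egln3 stood apart in size. It encodes the prolyl hydroxylase PHD3, and its induction by HIF forms a feedback loop. The processed signal was 288 and 275 on the GKA arrays, against 40.9 and 144 on the vehicle arrays. The GKA arrays lay close together, and the vehicle arrays differed more than 3-fold from each other, the widest gap between vehicle arrays among the 27 members. The log2 fold change was 2.26 ± 0.57 (SE, adjusted p = 0.0518 in limma), and the second Egln3 probe gave 2.11. Set against a single vehicle array it stood at 1.36 without vehicle replicate 1 and at 3.16 without vehicle replicate 2. Neither fit holds the gap between the vehicle arrays, so neither can show a rise beyond that gap. The fits lacking GKA replicate 1 and GKA replicate 2 missed the threshold, at 2.18 (adjusted p = 0.156) and 2.34 (adjusted p = 0.149).

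Egln1 encodes PHD2, the main oxygen sensor for HIF and a HIF target as well. It had processed signals of 403 and 378 on the GKA arrays, against 314 and 526 on the vehicle arrays. After scaling, GKA replicate 1 lay above both vehicle arrays and GKA replicate 2 between them, and the log2 fold change was 0.33 (95% interval -0.32 to 0.98, adjusted p = 0.411 in limma). Egln2, which encodes PHD1, stood at -0.19 (adjusted p = 0.383). Vhl stood at -0.06 (95% interval -0.34 to 0.23, adjusted p = 0.746) and Hif1an at -0.14 (95% interval -0.44 to 0.17, adjusted p = 0.459). Cited2, whose product competes with HIF for its coactivators, stood at 0.21 (adjusted p = 0.303). Egln2, Vhl and Hif1an passed as lower without scaling, where the whole distribution of genes was shifted down.

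The promoters of the members that rose were examined for the core hypoxia response element, the letters ACGTG or GCGTG on either strand. Sequences were the 250 bases before the gene start, from RefSeq on build GRCm38.p6. A CACGTG box, which other factors also bind, holds ACGTG on both strands and was counted as 2 overlapping matches. RefSeq promoters were found for 25 of the 30 members and not for Epas1, Bnip3l, Plod2, Lox and Ndrg1. At least 1 match was present in 21 of the 25 genes (84.0%), against 41.5% of all 27025 genes with a promoter, and at least 2 in 15 (60.0%), against 18.7%. The match contains CG, and the member promoters were richer in it, with a median of 17.0 CG pairs per promoter, against 6.00 over all promoters. All 5 members that rose had 2 or more matches, as did 10 of the other 20. Hif1an, Vhl, Car12 and Vldlr had none in any of their promoters listed. A match is a string of letters, and no binding was measured here.

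The 250 bases before the start of the 4 members with the largest rises are shown to place these matches, which stand in capitals, each 5′ to 3′ on the strand of its gene. In Stc2 both matches lie at the far end, their first bases 240 and 231 bases before the start. In Adm they lie 90 and 54 bases before it, in Ero1l 128, 88 and 63, and in Higd1a a pair that shares 1 base lies 70 and 66 bases before it.
Stc2, chr11:31370062-31370311, minus strand: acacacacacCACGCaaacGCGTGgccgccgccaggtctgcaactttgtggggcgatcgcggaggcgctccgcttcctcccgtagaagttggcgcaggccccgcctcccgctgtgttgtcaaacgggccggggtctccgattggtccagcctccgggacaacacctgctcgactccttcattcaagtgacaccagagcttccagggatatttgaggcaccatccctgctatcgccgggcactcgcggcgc
Adm, chr7:110627407-110627656, plus strand: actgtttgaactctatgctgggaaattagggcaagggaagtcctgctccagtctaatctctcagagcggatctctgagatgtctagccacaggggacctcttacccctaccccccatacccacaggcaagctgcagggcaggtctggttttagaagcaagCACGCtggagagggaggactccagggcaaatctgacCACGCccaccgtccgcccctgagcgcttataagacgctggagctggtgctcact
Ero1l, chr14:45318573-45318822, minus strand: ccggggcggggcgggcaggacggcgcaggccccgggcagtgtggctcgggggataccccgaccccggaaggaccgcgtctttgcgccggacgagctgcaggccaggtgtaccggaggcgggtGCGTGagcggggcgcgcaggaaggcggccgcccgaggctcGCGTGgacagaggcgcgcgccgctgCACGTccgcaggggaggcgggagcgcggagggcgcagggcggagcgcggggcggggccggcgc
Higd1a, chr9:121857797-121858046, minus strand: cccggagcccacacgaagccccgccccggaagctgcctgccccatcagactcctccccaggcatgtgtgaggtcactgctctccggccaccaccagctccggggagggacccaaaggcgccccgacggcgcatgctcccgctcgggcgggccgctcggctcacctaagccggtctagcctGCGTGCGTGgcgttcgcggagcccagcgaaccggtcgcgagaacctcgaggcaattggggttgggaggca

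Other genes of the pathway gave a mixed picture, as the plot of gene lists shows. A further 16 genes of the HIF pathway were tested, such as coactivators and subunits of the Vhl complex. In limma 0 were higher and 1 was lower, where 9.11% and 8.02% of all genes were. At an unadjusted p under 0.05, 2 were higher and 1 lower, against 18.2% and 17.9% of all genes. The median of these 16 genes was 0.09. The gene that fell was Arnt2, a relative of Arnt, at -0.92 ± 0.12 (SE, adjusted p = 0.0124 in limma), with both GKA arrays below both vehicle arrays. Of 38 tested non-glycolytic hypoxia targets outside the 30 members, 14 were higher and 6 lower at an unadjusted p under 0.05 in limma. The shares over all genes were 18.2% and 17.9%. The list had a median of 0.35. At an adjusted p under 0.05, 4 were higher and 4 lower, where 9.11% and 8.02% of all genes were. Selenbp1, at 1.94 ± 0.41, Edn1, which encodes endothelin, at 0.90 ± 0.14, and Tfrc, the transferrin receptor, at 0.85 ± 0.16, were higher. The fourth was Ak3l1, an adenylate kinase gene, at 2.21 ± 0.51. Stbd1, which binds glycogen, at -1.12 ± 0.19, Rora, a nuclear receptor, at -0.64 ± 0.11, and the kinase gene Pim1, at -0.89 ± 0.22, were lower, as was the mitochondrial protease Lonp1, at -0.64.

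Of 19 tested glycolytic hypoxia targets, 4 were higher (Ldha 2.20, Slc16a3 2.00, Gapdh 0.72 and Pkm2 0.83) and 0 were lower in limma. Over all genes, 9.11% were higher and 8.02% lower. At an unadjusted p under 0.05, 16 were higher and 0 lower, against 18.2% and 17.9% of all genes. The glycolytic list had a median of 0.80. Here the vehicle arrays, replicate 2 minus replicate 1, differed by a median of 0.69, and 13 of the 19 genes differed by at least 0.50 between the vehicle arrays. The targets among the members had the same kind of gap, 0.53, and the 38 other non-glycolytic targets one of 0.29.

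Stc2, Ddit4 and Vldlr are known as targets of the stress factor ATF4 as well as of HIF, so a list of ATF4 and CHOP targets was set beside them. Of its 12 tested genes, 4 were higher and 4 lower at an unadjusted p under 0.05 in limma. Over all genes, 18.2% were higher and 17.9% lower. The median of the list was -0.15. At an adjusted p under 0.05, 1 was higher (Psat1, 1.07 ± 0.17) and 3 were lower, where 9.11% and 8.02% of all genes were. Those that fell were Ddit3, which encodes CHOP (-1.80 ± 0.22), the pseudokinase gene Trib3 (-1.04 ± 0.16) and Sesn2 (-0.75 ± 0.14). In this list the vehicle arrays differed by a median of -0.05.

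**Figure D4:**
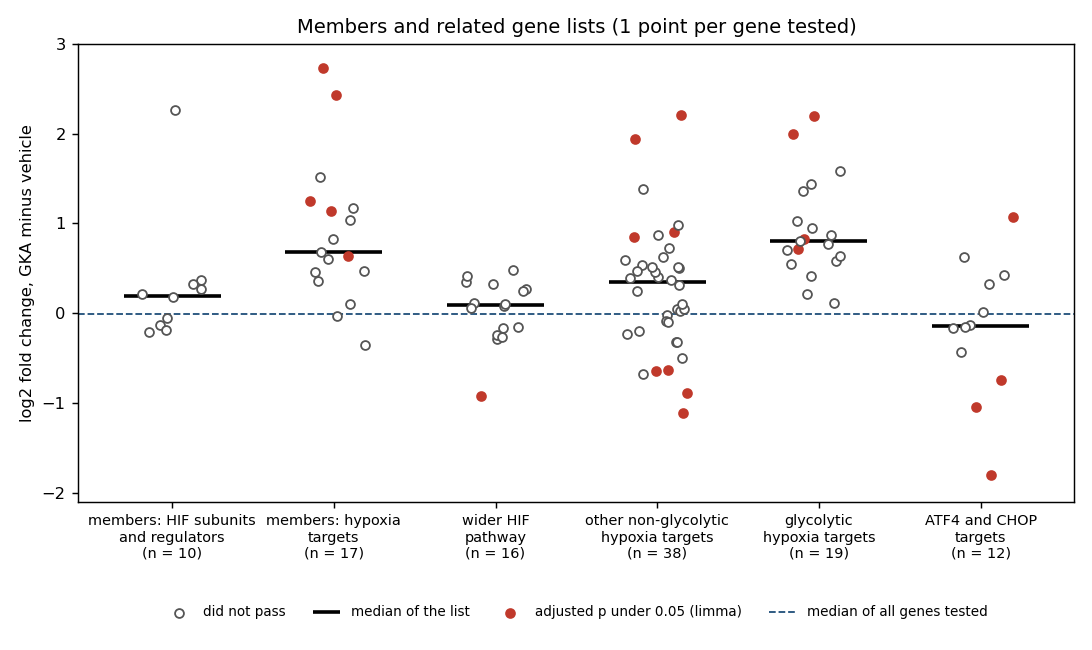
Log2 fold change of GKA minus vehicle for each tested gene of the members and of 4 related lists (vertical axis), with filled points for an adjusted p under 0.05 in limma, black bars for list medians and a dashed line at the median of all genes. The medians run from -0.15 for ATF4 and CHOP targets to 0.80 for glycolytic hypoxia targets.

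Markers of other cell types were examined by the same test and by their summed signal relative to the 75th percentile of each array. Over all genes, 9.11% were called higher and 8.02% lower, and 18.2% and 17.9% at an unadjusted p under 0.05. Of 9 endothelial markers, a cell type in which Epas1 is strongly active, Cdh5 was higher and Emcn lower, and the summed signal was 15.8 to 17.2 on the GKA arrays and 16.1 to 16.5 on the vehicle arrays. Of 10 leukocyte markers, 1 was higher and 5 were lower. The 5 include Lyz2, which was well above background on only 1 GKA array and was kept by the filter through the vehicle arrays. The summed leukocyte signal was 8.49 to 9.38 on the GKA arrays and 9.60 to 11.4 on the vehicle arrays. Of 7 markers of fibroblasts and stellate cells, which make collagen and the enzymes that modify it, 0 were higher and 1 was lower, with none higher and 1 lower at an unadjusted p under 0.05 in limma, and the summed signal was 8.45 to 9.55 on the GKA arrays and 9.65 to 12.4 on the vehicle arrays. Between the vehicle arrays, replicate 2 minus replicate 1, the median difference of these markers was 0.40. Acinar markers had 4 of 7 genes tested with 1 higher and 0 lower, and a summed signal of 8.25 to 8.90 on the GKA arrays and 3.51 to 3.83 on the vehicle arrays. Nearly all of that sum came from the transcription factor gene Bhlha15, which was higher by 1.37 ± 0.12 on the log2 scale (SE, adjusted p = 0.00588 in limma). The enzyme genes Cela1, Amy2a5 and Ctrb1 stood at -0.40, -0.36 and -0.10 and did not pass. Duct markers had 4 of 5 tested with 1 higher and 1 lower, and sums of 25.7 to 32.0 on the GKA arrays and 25.8 to 29.2 on the vehicle arrays. Of the 18 endocrine markers, 4 were higher and 0 lower, with summed signals of 2623 to 2742 on the GKA arrays and 2145 to 2167 on the vehicle arrays. The part of these cell types in the members' values was not tested.

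Across settings, the direction of the 5 genes that rose did not change, but the calls did, as the plot of 6 members under each setting shows. Stc2 passed in 15 of 15 alternatives, Adm in 12, Higd1a in 11, Ero1l in 8 and Ddit4 in 5, while Egln3 passed in 7. The counts for Stc2, Adm, Higd1a, Ero1l and Egln3 include spike-in scaling. In that fit all members had the same SE of 0.27, so the gap between a gene's own replicates did not count. A pass there cannot show a difference beyond that gap. Under median scaling 3 members were higher (Adm, Higd1a and Stc2), where 8.03% of all genes were. With normexp background correction 13 were, where 17.4% of all genes were.

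**Figure D5:**
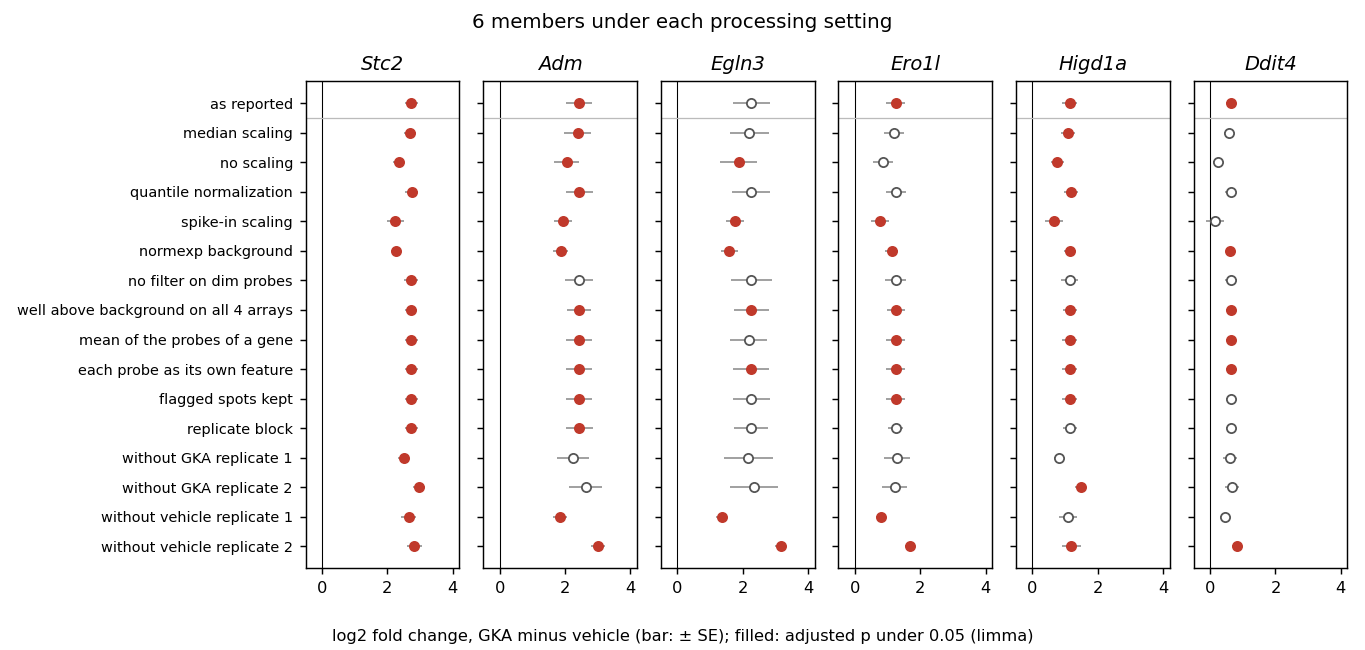
Log2 fold change of GKA minus vehicle with its SE for 6 members (panels) under the reported setting and 15 alternatives (rows), with filled points for an adjusted p under 0.05 in limma. All points of Stc2, Adm, Egln3, Ero1l, Higd1a and Ddit4 lie above 0, and those of Stc2 are filled in every row.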

How the data were processed

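Expression was measured in 2 GKA and 2 vehicle samples, 1 array each. The deposited intensity of each spot, background-subtracted and detrended, came from Agilent Feature Extraction 10.7.3.1 per the file headers (9.1 per the submitters' processing notes), unscaled between arrays. The authors' deposited table holds a mean intensity per group and a ratio of GKA over control, whose median of 0.841 carries the unscaled difference. It was used for names only. Here log2 intensity minus each array's 75th percentile was used, without control and outlier-flagged spots (68 to 118 per array), averaged per probe. Of 39429 probes, 24481 were well above background on both arrays of a group. Each gene was represented by its brightest kept probe, leaving out 44 probes whose names had become dates. GKA and vehicle were compared with limma 3.58.1 (lmFit, eBayes) in R 4.3.3, with 2 residual and 3.33 prior degrees of freedom. Data of this comparison were simulated 20 times with 17154 genes, of which 200 were set to change. On these the test found 36.8% of the genes set to change 2-fold and 93.8% of those set to change 4-fold, with 5.43% false calls. These shares apply to 200 changed genes, fewer than the 1562 called higher and 1375 called lower here. The files hold no mean spot signal, so normexp used the median. Members and lists were chosen with earlier results of these data known. From each related list up to 3 passing genes per direction with the lowest adjusted p were named. Ak3l1, Pkm2, Lonp1 and the acinar and endothelial markers given by name were named after their values were seen. Precision is limited by having 2 arrays per group.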

Additional observations from a re-analysis of the deposited data

How the results depend on the processing

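The 5 members higher became 3 with median scaling or quantile normalization, 13 with normexp background correction, 1 without the filter on dim probes, 2 with the replicate block (Adm and Stc2), and 1 to 14 without one array. The share of all genes called higher was 8.03% with median scaling, 8.76% with quantile normalization and 17.4% with normexp. It was 0.595% without the filter and 6.03% with the block. The 0 members lower became 5 without scaling, 3 with spike-in scaling and 1 with normexp. Of all genes, 44.6%, 35.6% and 12% were lower in these settings. The members' median of 0.46 was 0.079 without scaling and -0.024 with spike-in scaling, and 0.30 to 0.74 without one array. Their vehicle difference of 0.24 was 0.27 with median scaling, 0.57 with spike-in scaling, 0.16 without the filter and 0.33 for genes above background on all arrays. Genes higher overall (1562) became 750 without scaling, 468 with spike-in scaling, 2984 with normexp, 156 without the filter, 1035 with the block and 317 to 1520 without one array. Genes lower (1375) became 7643 without scaling, 6100 with spike-in scaling, 67 without the filter and 214 to 1309 without one array. The scalings shift all genes by construction, the filter changes the number of genes tested, and other causes were not tested. The replicate numbers share only a number: same-numbered arrays deviated with r = 0.08 over genes, with only 2 pairs.

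Signs turned for members that had not passed. Without scaling, Hif1a stood at -0.21, Epas1 -0.12, Arnt -0.01, Egln1 -0.059, Cited2 -0.17, Vegfa -0.28 and Plod1 -0.028. With spike-in scaling, Hif1a stood at -0.31, Epas1 -0.22, Arnt -0.11, Egln1 -0.16, Cited2 -0.27, Vegfa -0.39, P4ha2 -0.024, Plod1 -0.13 and Kdm3a -0.018. Hif3a stood at 0.27 with normexp, and Epas1 at -0.15 and Vldlr at 0.19 with the mean of the probes. Without one array, Hif1a ran from -0.16 to 0.52, Hif3a from -0.56 to 0.14, Egln1 from -0.042 to 0.69, Vegfa from -0.034 to 0.24, P4ha2 from -0.032 to 0.96 and Vldlr from -0.13 to 0.074.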
